A study of Mus musculus with 8 samples.

Results

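The genes described here are 9 markers of the thalamus and habenula, namely Tcf7l2, Lef1, Prkcd, Slc17a6, Ramp3, Rgs16, Tnnt1, Synpo2 and Zic1. They were chosen by name, as genes known from these diencephalic nuclei, out of 40659 gene identifiers in the count table, and all 9 passed the filter on low counts that left 17252 tested genes. They were read in polyA-RNA sequencing libraries of whole mouse hippocampus, 4 from mice injected with the rAAV hpCTL and 4 from mice injected with the rAAV hp708. The mice were C57BL/6JRj males, injected in the dorsal and ventral hippocampus at postnatal week 7 to 8 and dissected 4 weeks later, with a labelled age of 12 to 13 weeks. Both rAAVs are adeno-associated viruses. hp708 carries a hairpin that overexpresses miR-708-5p under the human synapsin promoter, which is active in neurons, and hpCTL carries a control hairpin.

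The thalamus relays sensory and motor signals to the cortex, and the habenula, at its dorsal edge, links the forebrain to midbrain monoamine centres. Both lie close to the hippocampus, as does the choroid plexus, and their neurons are mostly glutamatergic and use the vesicular transporter VGLUT2 (Slc17a6), whereas hippocampal pyramidal and granule cells mainly use VGLUT1. Tcf7l2 and Lef1 are transcription factors of the Wnt and beta-catenin pathway, and Zic1 is a zinc finger transcription factor of the developing dorsal brain. Several of the 9 genes also have some expression in other cells of the hippocampus or neighbouring cortex. Which cells their reads came from was not tested.

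Total counts per library ran from 22606824 to 28462428. Each library came from 1 animal, and no library was a copy of another. A single animal has conflicting group names, since a qPCR list of the study has it among the hpCTL mice, while its library is labelled hp708 replicate 1. It was kept in the hp708 group by its label, and the results that rest on it are also given without it. Library hp708 replicate 2 stood apart in the summed level of the 9 genes and was the highest in choroid plexus genes, and its values are given beside the results it touches. The mature microRNA is not captured by polyA libraries, so its overexpression could not be checked. In whole tissue, fewer cells of a type and less RNA per cell cannot be told apart.

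The sequence of the overexpressed microRNA is shown because its seed, bases 2 to 8 in capitals, decides which messages it can pair with. It is credited to RefSeq (GRCm38.p6, chr7:96249450-96249472, plus strand).
miR-708-5p: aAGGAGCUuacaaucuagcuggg
The complement of this seed, AGCTCCT, was searched on the transcript strand of the longest annotated 3′ untranslated region of each gene (GRCm39). A seed match was present in 1 of the 9 genes (11.1%) and in 3165 of 14809 tested genes with such a region (21.4%). The one match lay in Prkcd, at chr14:30319381-30319387 on the minus strand, and is shown in 30 bases with the match in capitals.
Prkcd: cccttttgtggtcatAGCTCCTtctctggc
The other 8 genes held no match in the searched region, and none held the 6 bases of the seed followed by an A. A match describes the sequence only.

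At the level of the whole comparison, no marker gene passed the test between hp708 and hpCTL. By the quasi-likelihood test of edgeR, fitted with 3 surrogate variables (estimates of unknown variation) and adjusted over all tested genes, 0 of the 9 were called at an FDR below 0.05, against 1 of 17252 tested genes (0.0058%). At an unadjusted p below 0.05, Slc17a6 and Rgs16 were lower in hp708, 2 of 9, against 4.87% of all tested genes. Zic1 was higher, 1 of 9, against 2.82%. The likelihood ratio test and DESeq2, each with 3 surrogate variables, called 1 of the 9, which was Slc17a6 both times, and these tests called 127 (0.736%) and 96 (0.556%) of the 17252 tested genes. The fitted log2 fold change was below 0 for 7 of the 9, with a median of -0.10, beside 53.2% of all tested genes and a median of -0.01. Without surrogate variables it was below 0 for 4 of the 9, and without the library labelled hp708 replicate 1 for 5 of the 9.

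**Figure D1:**
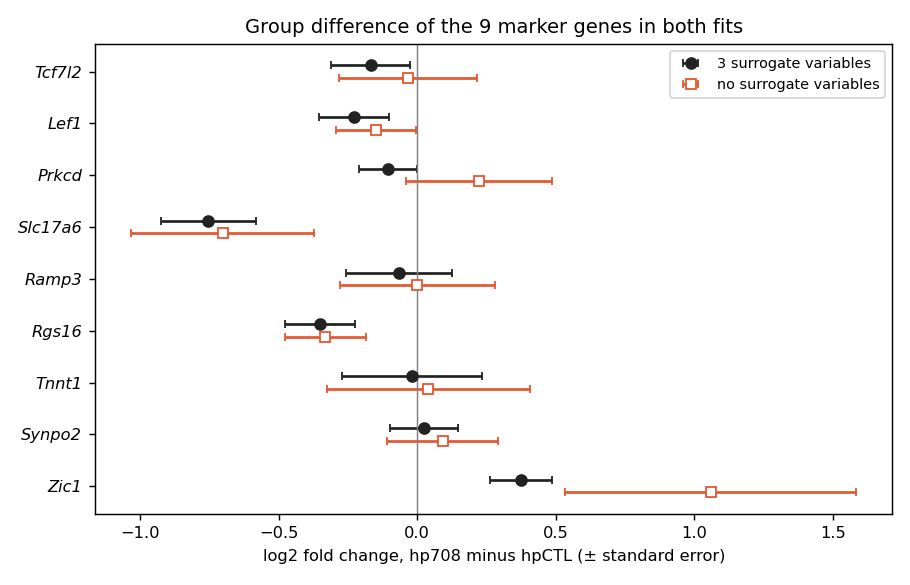
Log2 fold change of each of the 9 marker genes, hp708 minus hpCTL (x axis), with its standard error, in the fit with 3 surrogate variables (filled circles) and without (open squares). Slc17a6 and Rgs16 lie below 0 in both fits, and Zic1 lies above 0 in both, at 0.37 and 1.06.

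Of the 9 genes, Slc17a6 and Rgs16 had the lowest log2 fold changes. Slc17a6 (ENSMUSG00000030500, GRCm39, chr7:51271434-51320867, plus strand) encodes VGLUT2, which loads glutamate into synaptic vesicles. Levels are given in CPM, a gene's read count divided by its library total after TMM scaling and multiplied by a fixed constant. CPM values are thus not raw counts, which were 117 to 510 per library for Slc17a6. Slc17a6 stood at 11.4, 18, 15.1 and 19.2 CPM in hpCTL replicates 1 to 4 and 15.8, 11.6, 6.95 and 4.83 CPM in hp708 replicates 1 to 4. The library labelled hp708 replicate 1 and hp708 replicate 2 lay inside the hpCTL range, and hp708 replicates 3 and 4 lay below it. The log2 fold change was -0.75 (SE 0.17, unadjusted p = 0.00297, FDR 0.386 by edgeR's quasi-likelihood test, n = 4 per group). The mean was 15.9 ± 3.45 CPM in hpCTL and 9.78 ± 4.88 CPM in hp708 (SD, n = 4). With the likelihood ratio test the FDR was 0.0397 and with DESeq2 it was 0.0204, both with 3 surrogate variables. Without the library labelled hp708 replicate 1, the quasi-likelihood fit gave -1.25 and an FDR of 0.0262, and 56 of 17425 tested genes were called (0.321%). Without hp708 replicate 4 it gave -0.56 and an FDR of 0.327, and among the 8 such fits that left out 1 library the FDR was below 0.05 in 1. Without surrogate variables the quasi-likelihood fit gave -0.70 (SE 0.33, unadjusted p = 0.0602, FDR 0.999 by edgeR's quasi-likelihood test). Leaving out the library labelled hp708 replicate 1 as well gave -1.03 and an FDR of 0.999. The call for Slc17a6 thus changed with the test, with 1 library and with the surrogate variables, and no fit without them called it.

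Rgs16 (ENSMUSG00000026475, chr1:153616091-153621228, plus strand) accelerates the GTPase of G proteins of the Gi and Gq classes and so shortens receptor signalling. Rgs16 stood at 8.14, 8.88, 8.61 and 8.34 CPM in hpCTL and 7.43, 8, 6.18 and 5.37 CPM in hp708 replicates 1 to 4. All 4 hp708 libraries lay below all 4 hpCTL libraries, the narrowest gap being 8 against 8.14 CPM. Rgs16 was the 1 member of 9 without overlap between groups, beside 1.51% of all tested genes, and with CPM scaled by total counts only, the groups overlapped (8.14 in hp708 replicate 2 against 8.01 in hpCTL replicate 1). The log2 fold change was -0.35 (SE 0.13, unadjusted p = 0.0271, FDR 0.594 by edgeR's quasi-likelihood test). Without surrogate variables it was -0.33 (unadjusted p = 0.0479 by edgeR's quasi-likelihood test), the 1 member of 9 lower at that threshold, beside 0.951% of all tested genes. Without the library labelled hp708 replicate 1 it was -0.44, with an FDR of 0.267. Of the exon bases of Rgs16, 18.7% overlap the antisense lncRNA Gm28513, and the strand setting of the counting is not given in the sources used here, so reads there cannot be assigned to 1 of the 2 genes.

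Prkcd encodes protein kinase C delta, a diacylglycerol-activated kinase with high levels in sensory relay nuclei. Prkcd stood at 30.5, 33.5, 40.2 and 39.6 CPM in hpCTL and 23.5, 66.9, 35.5 and 42.1 CPM in hp708. The library labelled hp708 replicate 1 was the lowest of the 8 and hp708 replicate 2 the highest, so the hp708 values enclosed those of hpCTL. The log2 fold change was -0.10 (SE 0.11, FDR 0.863 by edgeR's quasi-likelihood test) when surrogate variables were fitted and 0.22 without, and it was 0.39 without the library labelled hp708 replicate 1. The seed match shown above stood beside no called difference.

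Ramp3 encodes a receptor activity-modifying protein that partners the calcitonin receptor-like receptor. Ramp3 stood at 3.61, 2.49, 2.79 and 2.03 CPM in hpCTL and 2.07, 4.13, 2.77 and 1.98 CPM in hp708. Replicate 1 of hpCTL and replicate 2 of hp708 were the highest, and the groups overlapped. For Ramp3 the log2 fold change was -0.07 (SE 0.19, FDR 0.955 by edgeR's quasi-likelihood test), and 0.14 without the library labelled hp708 replicate 1.

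Among the transcription factors, Tcf7l2 stood at 4.89, 6.6, 7.55 and 8 CPM in hpCTL and at 7.5, 9.22, 4.35 and 5.33 CPM in hp708. It is known as a marker of postmitotic neurons of the thalamus and habenula, and which cells its reads came from was not tested. The groups overlapped, with hp708 replicate 2 highest and hp708 replicate 3 lowest. For Tcf7l2 the log2 fold change was -0.17 (SE 0.14, FDR 0.83 by edgeR's quasi-likelihood test), and -0.19 without the library labelled hp708 replicate 1. Its partner in the Wnt pathway, Lef1, stood at 5.5, 5.73, 6.23 and 6.68 CPM in hpCTL and at 4.75, 6.48, 5.2 and 5.37 CPM in hp708. Except in hp708 replicate 2, the hp708 values of Lef1 lay below the hpCTL values. The log2 fold change of Lef1 was -0.23 (SE 0.13, FDR 0.726 by edgeR's quasi-likelihood test), and it was -0.09 (FDR 0.866) without the library labelled hp708 replicate 1. The exons of Lef1 overlap the antisense gene Lef1os1 over 16.3% of their bases.

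Zic1 (ENSMUSG00000032368, chr9:91240111-91247863, minus strand) had the widest spread of the 9. Zic1 stood at 7.35, 9.53, 9.8 and 12.9 CPM in hpCTL and 13.4, 49.6, 6.82 and 12.8 CPM in hp708. Replicate 2 of hp708 stood far above the other 7 libraries, which lay between 6.82 and 13.4 CPM. The log2 fold change was 0.37 (SE 0.11, unadjusted p = 0.0111, FDR 0.514 by edgeR's quasi-likelihood test) when surrogate variables were fitted and 1.06 (SE 0.53) without. With hp708 replicate 2 left out, these were 0.28 and 0.16. With the library labelled hp708 replicate 1 left out, they were 0.84 and 1.23. Zic1 and its neighbour Zic4 share 3.02% of the Zic1 exon bases on opposite strands. Zic4, a gene of the same family, stood at 2.71, 3.37, 4.1 and 4.54 CPM in hpCTL and 4.68, 14.9, 2.86 and 4.96 CPM in hp708, again with hp708 replicate 2 highest.

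Both genes for contractile or actin-associated proteins differed by less than their standard error. Tnnt1 encodes the slow skeletal troponin T and stood at 1.82, 0.831, 1.31 and 0.789 CPM in hpCTL and 0.906, 2, 1.07 and 0.95 CPM in hp708. With 19 to 51 counts per library it was the least deeply counted of the 9. Its log2 fold change was -0.02 (SE 0.25, FDR 0.99 by edgeR's quasi-likelihood test), and 0.36 without the library labelled hp708 replicate 1. Synpo2 encodes the actin-binding protein synaptopodin 2 and stood at 5.64, 8.88, 10.6 and 10.4 CPM in hpCTL and 10, 10.7, 8.01 and 9.17 CPM in hp708. Replicate 1 of hpCTL was the lowest for Synpo2, and the log2 fold change was 0.02 (SE 0.12, FDR 0.975 by edgeR's quasi-likelihood test), or -0.0092 without the library labelled hp708 replicate 1.

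**Figure D2:**
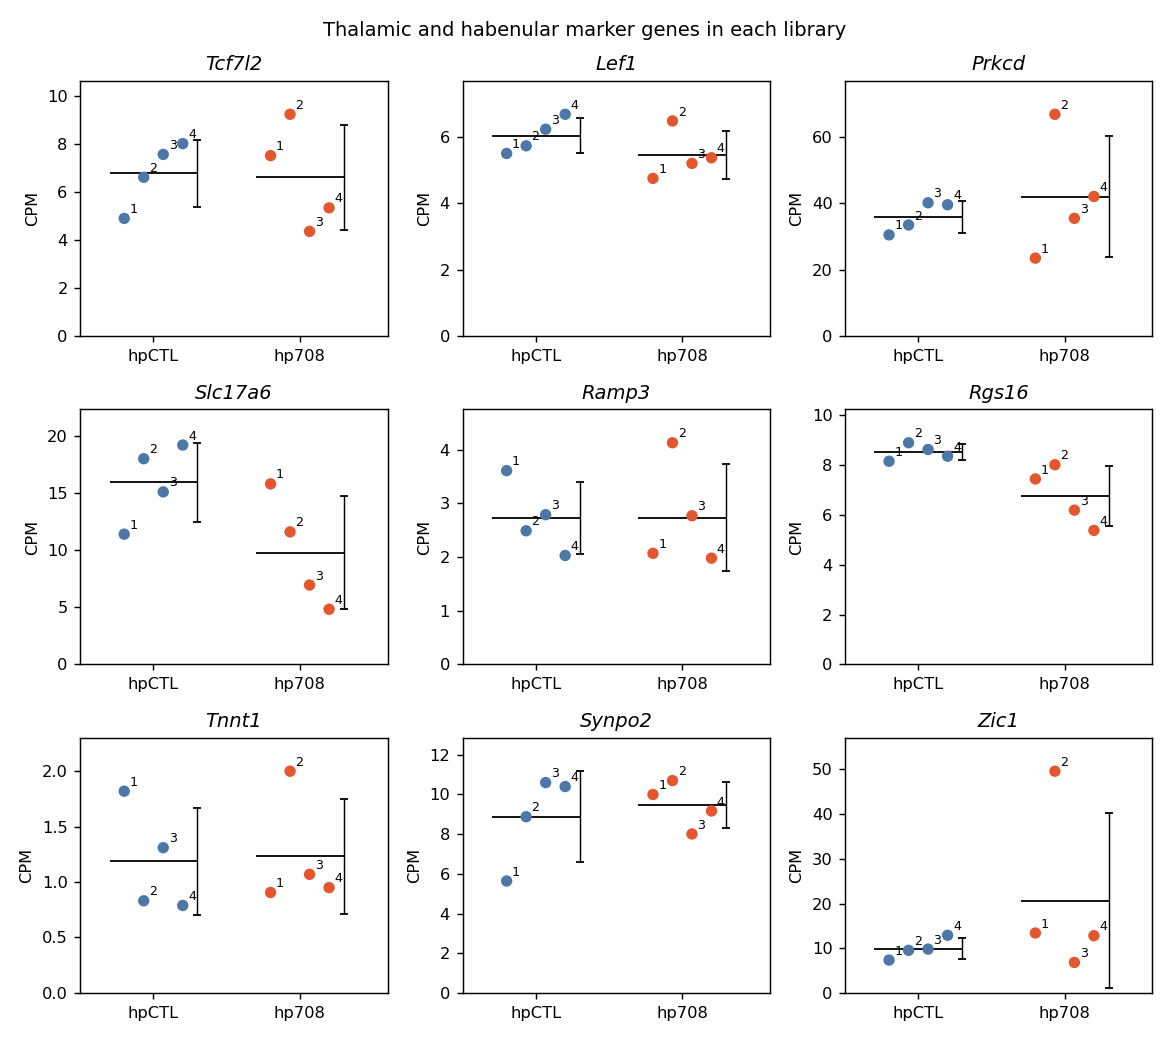
CPM (y axis, starting at 0) of each of the 9 marker genes in the 4 hpCTL and 4 hp708 libraries, numbered by replicate, with the group mean (line) and SD (bar). Zic1 reaches 49.6 CPM in hp708 replicate 2, and the groups of Rgs16 do not overlap.

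Per length of exon, the 9 genes were modestly expressed in the hippocampal libraries. In TPM (counts per annotated exon length, scaled to a common total), the means over 8 libraries were 15.6 for Prkcd (9.87 to 26), 14.7 for Rgs16 (10.5 to 17.4), 12.1 for Zic1 (5.63 to 38.3), 10.2 for Slc17a6 (3.9 to 15) and 8.91 for Ramp3 (6.52 to 13.1). A second level was formed by Tcf7l2 at 3.38 (2.28 to 4.53), Synpo2 at 3.19 (1.9 to 3.65), Lef1 at 2.79 (2.42 to 3.2) and Tnnt1 at 2.29 (1.48 to 3.7). Neighbours in this order overlapped in their library ranges, except Ramp3 and Tcf7l2. The median over 10 markers of hippocampal pyramidal and granule neurons was 53.7 TPM.

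The spread between libraries of 1 group was large for most of the 9 genes. The within-group SD of log2 CPM lay at the 97th percentile of all tested genes for Zic1, at 90.6 for Slc17a6, 88 for Tnnt1, 84.8 for Prkcd, 81.6 for Ramp3 and 81.1 for Tcf7l2. Synpo2 lay at 73.7, Rgs16 at 50.3 and Lef1 at 40.7. These percentiles compare genes of all levels, and counting noise, which is larger for genes with few counts, is part of the spread. Tnnt1 had 19 to 51 and Ramp3 48 to 101 counts per library, and counting noise was not separated from differences between animals. For Zic1, hp708 replicate 2 stood at 49.6 CPM and the other libraries at 6.82 to 13.4 CPM. The surrogate variables took up 67.3% (Rgs16) to 98.3% (Zic1) of the within-group variance, against a median of 74.7% over all tested genes. Library hp708 replicate 2 was the highest for 6 of the 9 genes. Summed over the 9 genes, hpCTL replicates 1 to 4 reached 78.9, 94.4, 102 and 108 CPM, and hp708 replicates 1 to 4 reached 85.4, 169, 76.9 and 87.9 CPM.

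Across the libraries, Pearson's r of log2 CPM was above 0 for 30 of the 36 pairs of the 9 genes and below 0 for 6, and 5 pairs had an unadjusted exact permutation p below 0.05. Without the 2 libraries farthest from the median of the first gene of a pair, r was above 0 for 23 pairs and below 0 for 13, and 8 pairs turned from above to below 0, among them Prkcd with Ramp3 (0.471 to -0.784) and Ramp3 with Zic1 (0.335 to -0.883). Over all 8 libraries r ranged from -0.33 (Ramp3 and Synpo2) to 0.93 (Ramp3 and Tnnt1), with a median of 0.38, and 0 pairs had an adjusted p below 0.05 by exact permutation. For Ramp3 and Tnnt1, Spearman's rho was 0.83 (exact permutation p = 0.00206 for r and 0.0154 for rho, adjusted 0.0741 and 0.185), and r was 0.68 without the 2 libraries farthest from the median. For Slc17a6 and Rgs16, r was 0.92 and rho 0.74 (exact permutation p = 0.00464 and 0.0458, adjusted 0.0835 and 0.33). Without the 2 farthest libraries their r was 0.34, so the relation rests on those libraries. Within groups, after centring each group on its mean, r was 0.93 for the first pair and 0.87 for the second. Slc17a6 and Prkcd, both genes of relay neurons, had an r of -0.215 (rho -0.286, exact permutation p = 0.595 and 0.501, adjusted 0.793 and 0.859).

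**Figure D3:**
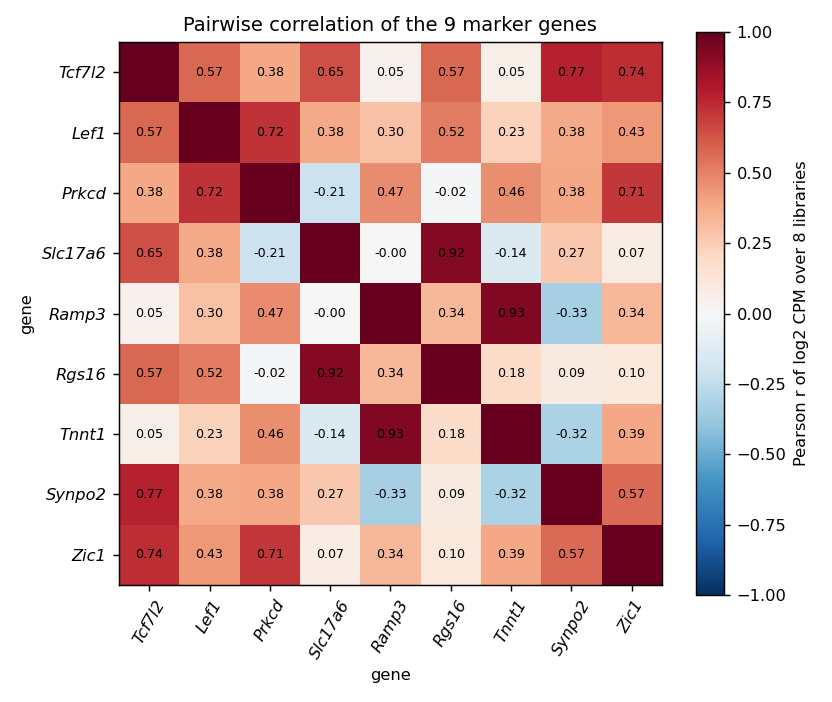
Pearson r of log2 CPM over the 8 libraries for each pair of the 9 marker genes (both axes list the genes, colour from -1 to 1). The highest values belong to Ramp3 with Tnnt1 and to Slc17a6 with Rgs16, and Slc17a6 with Prkcd is below 0.

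Among the tested genes whose log2 CPM followed the mean of the 9 most closely over 8 libraries were Csad, Pdia4, Tent5a, Creld2, Snord47, 2810002D19Rik, L3mbtl3, Rcan2 and Fcgrt, with r from 0.983 (Csad) to 0.947 (Fcgrt) among 17243 genes. In each of these 9, hp708 replicate 2 was the highest library. Csad stood at 22.3, 23.2, 23.6 and 23.1 CPM in hpCTL and 22.7, 27.7, 20.1 and 20.9 CPM in hp708. These correlations describe likeness of pattern only.

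No other marker of the same nuclei passed the test. Of 30 further genes of the thalamus, its reticular nucleus and the habenula, 22 passed the filter. Of these, 0 were called by edgeR's quasi-likelihood test and 0 had an unadjusted p below 0.05, with a median log2 fold change of 0.05. Without the library labelled hp708 replicate 1, 1 was called, Nr4a2 (log2 fold change -0.60, FDR 0.0262), beside 0.321% of all genes tested in that fit. The likelihood ratio test and DESeq2 with 3 surrogate variables called 0 of them. The 3 highest were Six3 (0.58), a transcription factor of reticular thalamus, Slitrk6 (0.47) and Ecel1 (0.43). The 3 lowest were Gng8 (-0.29), Nr4a2 (-0.27), a nuclear receptor, and Ntng1 (-0.21), a netrin-related adhesion protein. The defining thalamic transcription factors Gbx2 and Shox2 had 0 to 18 and 0 to 19 counts per library, and the habenular factor Pou4f1 had 0 to 4. Nr4a2 was far higher, at 55, 70.1, 57.2 and 59.6 CPM in hpCTL and 60.2, 46.2, 53.2 and 33.7 CPM in hp708. Which cells the reads of Nr4a2 came from was not tested. The summed CPM of the 14 wider thalamus genes was 349 to 442 in hpCTL and 415 to 459 in hp708. That of the 13 habenula genes, among which Nr4a2 had the highest mean, was 116 to 139 and 100 to 126. Six3 stood at 0.178, 0.568, 0.328 and 0.864 CPM in hpCTL and 1.3, 3.26, 0.171 and 0.33 CPM in hp708.

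Markers of neighbouring tissue varied between animals as well. All 10 choroid plexus genes were detected in every library, and they summed to 239, 2470, 393 and 3110 CPM for hpCTL and to 4370, 6340, 300 and 434 CPM for hp708. Replicate 2 of hp708, the highest in Zic1, was also the highest in this sum, and the part of choroid plexus tissue in the values of Zic1 was not tested. The 6 meningeal fibroblast genes summed to 127 to 277 CPM in hpCTL and 98.6 to 328 in hp708. The 5 subiculum genes summed to 219 to 305 CPM and 199 to 300 CPM, with none at 0 in any library. Among them Nts (log2 fold change -1.12, unadjusted p = 0.00233) and Tshz2 (-0.73, unadjusted p = 0.00257) lay below 0 by edgeR's quasi-likelihood test, both with an FDR of 0.382. Nts stood at 5.68, 5.55, 6.97 and 7.44 CPM in hpCTL and 5.58, 3.87, 1.75 and 1.53 CPM in hp708, lowest in replicates 3 and 4 as was Slc17a6. Tshz2 stood at 23, 58.8, 36.5 and 54.5 CPM in hpCTL and at 53.8, 16.2, 16.8 and 16.1 CPM in hp708, so that replicate 2 was as low as 3 and 4. The 1 hp708 library in the upper part of the hpCTL range of Tshz2 was that labelled hp708 replicate 1, the animal with conflicting group names. Leaving it out gave log2 fold changes of -1.53 for Nts (FDR 0.0535) and -1.57 for Tshz2 (FDR 0.0239) by edgeR's quasi-likelihood test. Without surrogate variables the unadjusted p was 0.0235 for Nts and 0.121 for Tshz2 in edgeR's quasi-likelihood fit. These 2 of the 5 genes were picked once their values were known. The other 3 had unadjusted p-values above 0.05 and log2 fold changes nearer 0, namely Ntng2 (0.09), Lypd1 (-0.04) and Fn1 (-0.16), and their CPM in hp708 replicates 3 and 4 was 49 and 44.2 for Ntng2, 98.7 and 62.6 for Lypd1, and 75.8 and 90.5 for Fn1. The part of subicular tissue in the values of Slc17a6 was not tested.

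The other lists gave the following extremes of log2 fold change. These were Kcnj13 (-0.21) and Aqp1 (0.59) for choroid plexus, Bmp4 (-0.10) and Bcas1 (0.12) for differentiating oligodendrocytes, and Cldn5 (-0.17) and Slco1a4 (0.03) for endothelium. Mural cells gave Rgs5 (-0.08) and Cnn1 (0.55), meningeal fibroblasts Slc6a13 (-0.20) and Col1a1 (0.35), Cajal-Retzius cells Reln (0.05) and Ebf3 (0.78), subiculum Nts and Ntng2 (0.09), striatum Adora2a (-0.37, its lowest), and hippocampal neurons Fibcd1 (-0.05) and Iyd (0.41). Of these lists' genes 0 were called. At an unadjusted p below 0.05 by edgeR's quasi-likelihood test, Bok and Iyd, 2 of 10 hippocampal neuron markers, and Ebf3, 1 of 3 tested Cajal-Retzius genes, were higher, beside 2.82% of all tested genes. Without surrogate variables the unadjusted p was 0.174 for Bok, 0.17 for Iyd and 0.0626 for Ebf3 by edgeR's quasi-likelihood test. In that fit Trp73, a further Cajal-Retzius gene, was higher with an unadjusted p of 0.0301 by the same test. With surrogate variables, 9 of the 10 hippocampal neuron markers had a log2 fold change above 0, with a median of 0.15. Over all tested genes 8076 of 17252 lay above 0, with a median of -0.01. In 3 further lists, chosen after values were seen, some genes lay below 0 at an unadjusted p below 0.05 in the edgeR fit that held 3 surrogate variables, beside 4.87% of all tested genes. These were 4 of 8 microglia and macrophage genes (median log2 fold change -0.25), 5 of 6 T cell genes (-0.69) and 6 of 6 interferon response genes (-0.69), of which 0 were called. Without surrogate variables 0 genes of these lists had such a p, and the medians were -0.09, -0.21 and -0.24. Summed over each list, the groups overlapped, with 12.1 to 37.1 CPM in hpCTL and 10.6 to 40.8 CPM in hp708 for T cells and 147 to 381 and 137 to 339 CPM for interferon response.

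**Figure D4:**
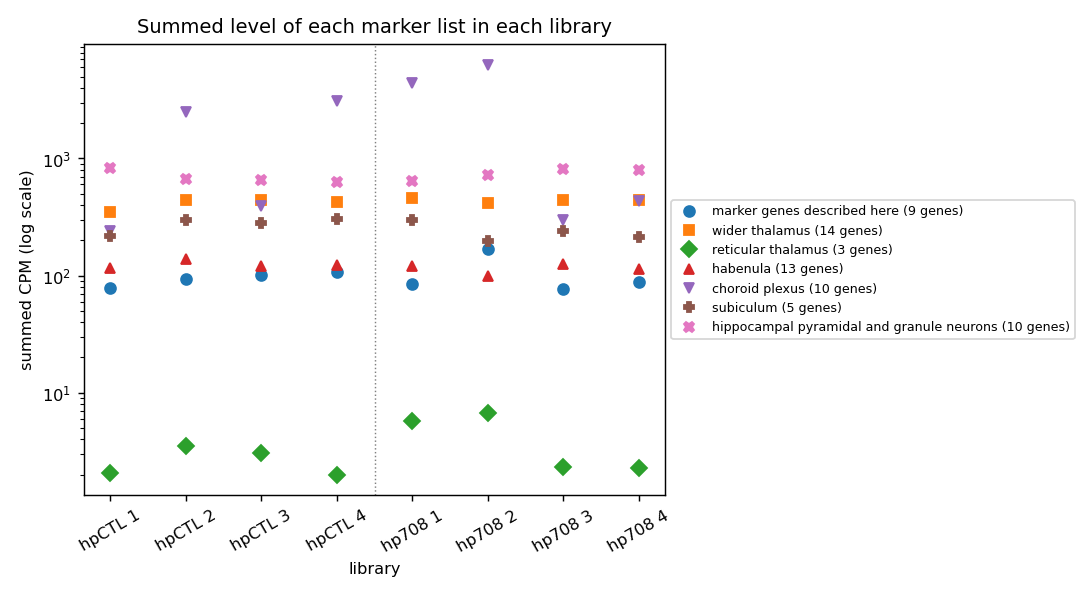
Summed CPM (y axis, log scale) of each marker list in each of the 8 libraries (x axis). Choroid plexus genes range from 239 to 6340 CPM, and the 9 marker genes from 76.9 to 169 CPM.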

How the data were processed

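PolyA-RNA reads of 4 hpCTL and 4 hp708 mice were aligned to GRCm39 by the authors with STAR 2.7.8a, and raw gene counts from featureCounts 1.6.4 were deposited by the authors without normalization (tools per the submitters' processing notes). The strand setting is not given in the sources used here. Samples were grouped by their labels. Of 40659 identifiers, 39641 were named from GENCODE. Low genes were removed by filterByExpr, libraries were scaled by TMM, and groups were compared in edgeR 4.0.16 (R 4.3.3, legacy quasi-likelihood fit, Benjamini-Hochberg FDR). Surrogate variables, 3 in number, came from sva 3.50.0 run on the filtered counts. DESeq2 1.42.0 was an alternative. Log2 CPM used a prior count of 2. TPM used annotated exon lengths. On simulated counts of 17109 genes for this comparison, the fit with 3 surrogate variables called 139 of 150 genes changed at least 2-fold, with 8 false calls. The simulated counts had the same dispersion for every gene and no unknown variation between animals. This recovery therefore does not measure the power of the fit on the real libraries.

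The 9 genes and the marker lists were chosen with earlier results of these data known. Named are the 9 genes, called genes and the 3 highest and 3 lowest of the thalamus and habenula lists, the highest and lowest of every other list, and the 10 genes most alike; 2 of the genes this rule names are not reported here. Zic4, the other subiculum genes, Bok and the lists' defining markers are named in addition, after their values were seen. Chi-square per degree of freedom between libraries of 1 group was 10 to 46.2.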

Additional observations from a re-analysis of the deposited data

Results flagged for a closer look

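In groups of 4 libraries, 1 library lay far from the other 3 in 6 of 44 groups examined (Dixon's test, which chance passes in about 1 of 20 groups). Some groups are sums that contain genes of other groups, so the groups are not independent. The largest parts of the summed CPM of the 9 marker genes in hp708 replicate 2 were Prkcd (66.9 CPM) and Zic1. Library hp708 replicate 2 was high in Tnnt1 (2 CPM, the others 0.906 to 1.07), in Zic1 (49.6 CPM, the others 6.82 to 13.4) and in the summed CPM of the 9 marker genes (169, the others 76.9 to 87.9). It was low in the summed CPM of Cajal-Retzius cell genes (52.2, the others 77.1 to 81.2). Library hpCTL replicate 1 was low in the summed CPM of the wider thalamus genes (349, the others 427 to 442) and of striatum genes (77.7, the others 98.8 to 102).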

How the results depend on the processing

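Over all tested genes, 0 were called without surrogate variables, 127 by the likelihood ratio test, 96 and 2 by DESeq2 with and without surrogate variables, 3 by edgeR 4 quasi-likelihood and 12 unfiltered. A minimum of 10 counts in each library gave 0, and surrogate variables from TMM-scaled counts, chosen after seeing the data, gave 0. Of the 9 marker genes 1 was called by the likelihood ratio test and 1 by DESeq2, both with 3 surrogate variables, and the number below 0 was 4 without surrogate variables, with DESeq2 without them and with at least 10 counts. Without overlap were 0 genes with CPM by total counts (chosen after seeing the data). Leaving out 1 library gave 0 to 56 genes called, 0 to 1 marker genes called, 3 to 7 below 0, 0 to 1 further thalamus and habenula genes called, and 1 to 2 without overlap. The most calls came when the library labelled hp708 replicate 1 was left out of the fit with 3 surrogate variables. The second gene without overlap, without hp708 replicate 2, was Lef1. The sign reversed for Prkcd (0.2236 without surrogate variables, 0.2309 with DESeq2 without them, 0.235 with at least 10 counts, 0.1183 with TMM-scaled counts), Ramp3 (0.000596, 0.005636 and 0.06621 under the first 3) and Tnnt1 (0.04022, 0.0474, 0.3154 and 0.0549). The cause was not tested. With 1 library left out, log2 fold changes ran from -0.2512 to 0.1256 for Tcf7l2, -0.2044 to 0.4277 for Prkcd, -0.2946 to 0.1708 for Ramp3, -0.2925 to 0.3627 for Tnnt1, -0.06966 to 0.1895 for Synpo2, -0.2617 to -0.08283 for Lef1, -1.252 to -0.4736 for Slc17a6, -0.4508 to -0.2338 for Rgs16 and 0.156 to 1.357 for Zic1, the last 4 keeping their sign.

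Replicate numbers did not pair the samples (correlation of deviations -0.041 to 0.018). With the replicate block and no surrogate variables, 1 gene was called, 5 of the 9 lay below 0, and Prkcd (0.1326) and Tnnt1 (0.03937) reversed.

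Tnnt1 had the fewest counts of the marker genes, with 19 to 51 per library.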
